A study of Mus musculus with 6 samples.

Results

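Carbonic anhydrases and sodium-proton exchangers set the pH on the sides of cell membranes, and 8 of their genes were examined here in muscle stem cells with and without a targeted estrogen receptor α gene. They were taken by symbol from a table of 24980 genes: the carbonic anhydrases Car12, Car14, Car4, Car2, Car3 and Car13, and the exchangers Slc9a9 and Slc9a8. They were chosen by the measured difference between the groups in earlier results from the same libraries, in which Car12 was among the few genes called lower and Slc9a9 had a higher level in KO, and relatives of both were added by symbol. The contrast between the groups was therefore used in choosing them, and their differences are given as a description, without a test.

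Satellite cells, the stem cells of skeletal muscle, of adult C57BL6/J mice were isolated from hindlimb muscle by flow cytometry. Both groups were treated with tamoxifen (10 mg in all), which induced Cre. The 6 RNA-seq libraries carry the genotypes scERα WT (3) and scERα KO (3), the KO being targeted for the receptor. No label names the Cre or its promoter. Each value is in TPM, a relative transcript abundance scaled for transcript length that allows genes to be compared with each other. Nothing in the labels says whether each library came from its own mouse, so a p-value here reflects variation among the 6 libraries, part of which may be technical.

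The listed genes summed to between 295306 and 334382 TPM per library, of which small structured RNAs, ribosomal RNA genes included, took 62.6% to 66.8%. TPM keeps no sequencing depth, so the counting error behind a single value is unknown. The targeted gene, Esr1, lay between 6.94 and 7.53 TPM in WT and between 2.92 and 3.87 TPM in KO. The satellite cell marker Pax7 was present in every library, at 17.9 to 32.8 TPM, and Myf5 at 11.8 to 29.5 TPM. In bulk libraries, fewer cells of a type and less RNA per cell cannot be told apart.

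Carbonic anhydrases interconvert carbon dioxide and bicarbonate, releasing or taking up a proton. The family is divided by place: Car12 and Car14 span the plasma membrane with their catalytic side outward, Car4 is held outside the cell by a lipid anchor, and Car2, Car3 and Car13 are cytosolic. Sodium-proton exchangers move a proton against a sodium or potassium ion, some at the cell surface and others, among them Slc9a9 and Slc9a8, in endosomes and the Golgi. In human breast cancer cells CA12 is a known target of estrogen receptor α.

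All 8 genes were listed, at low levels. A gene was kept for testing when 3 or more libraries of the 6 reached 1 TPM. Over the 8971 genes that were, limma called 0.0557% in either direction, 0.0334% higher and 0.0223% lower in KO (adjusted p under 0.05). Of the 8, 2 passed the filter, Car12 through its WT libraries alone and Slc9a9 through its KO libraries and 1 WT library, so that passing was not independent of the group. The other 6 did not pass. In 1 of the 8 every KO library lay below every WT library, and in 3 every KO library lay above. Among the 20504 distinct symbols above 0 in at least 1 library, those shares were 2.31% and 9.13%. Nothing is read from the comparison, since the genes were chosen with this contrast known. In the other 4 the groups overlapped.

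**Figure D1:**
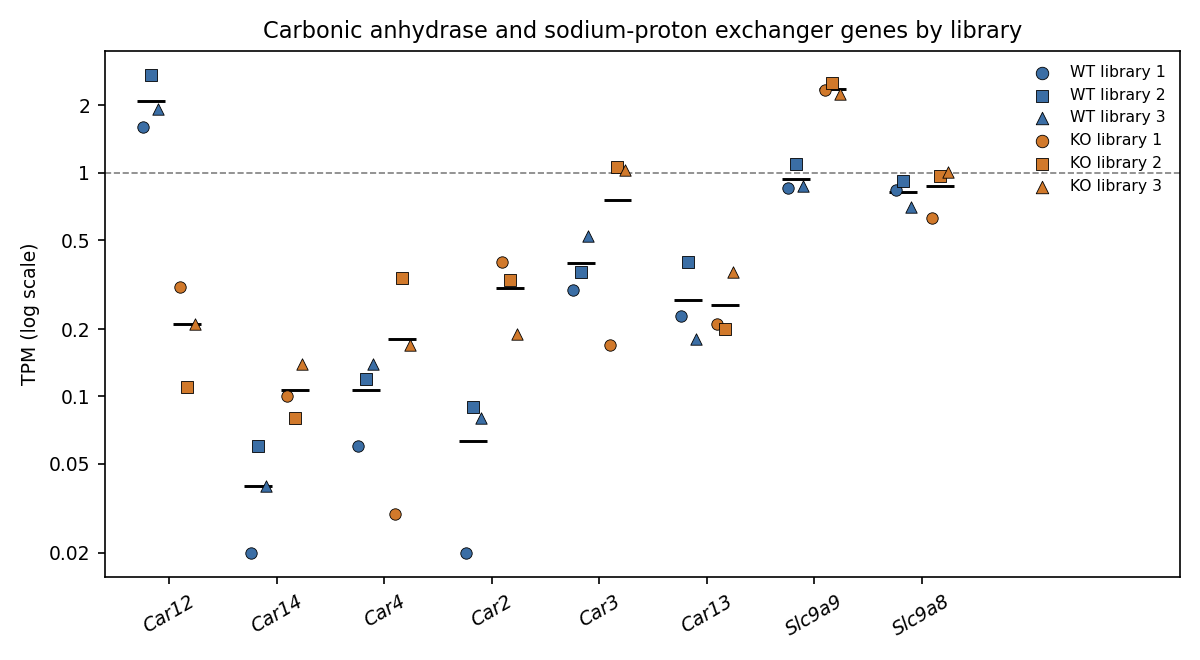
TPM of the 8 genes on a log axis, with 1 point per library, WT in blue and KO in orange; the short bars are group means of 3 libraries and the dashed line marks 1 TPM. Car12 is the gene with all 3 KO points (0.11 to 0.31 TPM) below all WT points (1.6 to 2.74 TPM), and Slc9a9 has all KO points (2.24 to 2.52 TPM) above the WT points (0.85 to 1.09 TPM).

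Car12 was the most abundant of the 8 in WT and the sixth in KO. It held 1.6, 2.74 and 1.93 TPM in WT libraries 1, 2 and 3 and 0.31, 0.11 and 0.21 TPM in KO libraries 1, 2 and 3. The lowest WT library lay well above the highest KO library. The means were 2.09 ± 0.587 and 0.21 ± 0.1 TPM (SD, n = 3 each), so that KO held 10.0% of the WT level. On the log2(TPM + 1) scale, which understates the change of low genes, the difference was -1.34 (SE 0.17). With each library left out in turn, the ratio of the KO to the WT mean stayed between 0.0766 and 0.124.

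The gene lies on chromosome 9 at 66713686 to 66766845 on the plus strand (GRCm38), with 6 annotated transcripts, and no other annotated gene overlaps it. Which transcripts its deposited value sums is not given. The bases upstream of its start are shown because the targeted gene encodes a transcription factor that binds DNA. They come from RefSeq (GRCm38.p6), the 250 bases before the annotated start, written 5′ to 3′ on the gene's strand. The same stretch of Slc9a9 is shown beside it, with any match to the motifs named below in capitals.

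Car12 upstream, chr9:66713436-66713685, plus strand: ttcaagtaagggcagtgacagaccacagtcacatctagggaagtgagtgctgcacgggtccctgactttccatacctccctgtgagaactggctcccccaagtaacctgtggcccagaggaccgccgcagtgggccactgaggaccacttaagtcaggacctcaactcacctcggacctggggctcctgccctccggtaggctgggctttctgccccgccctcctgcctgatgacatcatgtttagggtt

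Slc9a9 upstream, chr9:94669642-94669891, plus strand: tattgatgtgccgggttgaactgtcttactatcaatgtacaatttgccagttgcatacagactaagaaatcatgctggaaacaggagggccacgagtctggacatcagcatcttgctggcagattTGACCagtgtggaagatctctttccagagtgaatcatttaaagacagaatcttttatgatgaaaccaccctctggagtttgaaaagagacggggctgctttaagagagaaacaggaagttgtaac

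Motifs were searched on both strands. The full estrogen response element, GGTCA and TGACC with any 3 bases between them, was found in 0.0639% of 32851 such windows and in none of the 5 of these 8 genes that have a window. Its half-site GGTCA, which the full element contains, occurred in 35.2% of windows. It matched once in Slc9a9, beginning 125 bases before the start on the minus strand, and once each in Car14 and Car4. The hypoxia response core ACGTG, found in 16.6% of windows, matched in Car14 alone. Neither the TATA box TATAAA (12.4%) nor the E-box CAGCTG bound by myogenic factors (13%) matched in any of the 5. The Car12 window held none of the 5 motifs, which says only that these letters are not in those 250 bases. Its GC content was 59.2% and that of Slc9a9 42.8%, against a median of 52.4%.

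The listed genes around Car12 did not show a difference of its size. Aph1b, a subunit of γ-secretase whose gene lies 8.36 kb after Car12, held 0.66 ± 0.11 TPM in WT and 0.643 ± 0.186 TPM in KO (SD, n = 3 each). Usp3, a ubiquitin protease on the other side, held 2.57 ± 0.139 and 2.34 ± 0.249 TPM. Of the 6 nearest protein-coding genes, 3 on each side, 5 were listed, and the groups overlapped in each of the 5. Among symbols above 0 in at least 1 library, KO lay wholly below WT in 2.31% and wholly above in 9.13%. Of the 5 neighbours, 2 were tested and 0 called by limma (smallest adjusted p = 0.732, Benjamini-Hochberg over all genes tested, with 0 at an unadjusted p under 0.05). The rest did not pass the filter. Among all genes tested, 0.0557% were called and 10.6% had an unadjusted limma p under 0.05. The counts therefore do not set the neighbours apart from other genes.

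Car14, the closest relative of Car12 in its place in the membrane, lay at the bottom of the range. It held 0.02, 0.06 and 0.04 TPM in WT and 0.1, 0.08 and 0.14 TPM in KO. Every KO value was above every WT value, but the values are given in steps of 0.01 TPM and the difference of the means was under 0.1 TPM (0.04 ± 0.02 against 0.107 ± 0.0306 TPM, SD, n = 3 each). Car14 overlaps Aph1a on the opposite strand. Strandedness is not given and the overlap of their exons was not measured, so whether their values share reads is unknown. Aph1a held 0.95 to 1.52 TPM in WT and 1.27 to 1.46 TPM in KO.

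Car4, the lipid-anchored enzyme known from the endothelium of muscle capillaries, held 0.06, 0.12 and 0.14 TPM in WT and 0.03, 0.34 and 0.17 TPM in KO. The groups overlapped, and KO libraries 1 and 2 held the lowest and the highest value of all 6. Without KO library 2 the log2 difference of 0.08 (SE 0.11) became -0.01.

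The other enzymes that face outward were low as well. Car9, known for its induction by hypoxia, held 0.167 ± 0.115 TPM in WT and 0.21 ± 0.0608 TPM in KO, while lipid-anchored Car15 held 0.7 ± 0.259 and 0.44 ± 0.108 TPM (SD, n = 3 each). Car12 made up 65.8% to 68.5% of the summed TPM of the 5 membrane enzymes in WT and 8.87% to 26.1% in KO. Their sum was 3.1 ± 0.808 TPM in WT and 1.15 ± 0.121 TPM in KO, and without Car12 it was 1.01 ± 0.222 and 0.937 ± 0.172 TPM (SD, n = 3 each). The membrane class thus differed by the amount of Car12, while the rest of it differed by less than the spread between libraries.

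Cytosolic Car2, a fast enzyme abundant in red cells and osteoclasts, held 0.02, 0.09 and 0.08 TPM in WT and 0.4, 0.33 and 0.19 TPM in KO. The lowest KO value was above the highest WT value. The means were 0.0633 ± 0.0379 and 0.307 ± 0.107 TPM (SD, n = 3 each), a ratio of 4.84 between values that are all under 0.5 TPM. With each library left out in turn the ratio lay between 3.61 and 6.13. On the log2(TPM + 1) scale the difference was 0.29 (SE 0.08).

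The 8 erythroid markers summed to 18.6 to 215 TPM in WT and 38.7 to 438 TPM in KO. The groups overlapped in all 8. Among all symbols above 0 in at least 1 library, KO lay wholly above WT in 9.13% and wholly below in 2.31%. KO libraries 1 and 2 held the highest Car2 values, 0.4 and 0.33 TPM, and the highest erythroid sums, 419 and 438 TPM. WT library 1 held the lowest Car2 value, 0.02 TPM, with an erythroid sum of 215 TPM, the third highest. Car2 and the sum had the same rank in 1 of the 6 libraries. Car1, the other carbonic anhydrase of red cells, was listed at 0 in every library. The part of erythroid RNA in the Car2 values was not tested.

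Car3, a slow enzyme abundant in mature muscle fibres and fat, held 0.3, 0.36 and 0.52 TPM in WT and 0.17, 1.06 and 1.03 TPM in KO. KO library 1 was the lowest of all 6 and KO libraries 2 and 3 the highest. Means were 0.393 ± 0.114 TPM in WT and 0.753 ± 0.505 TPM in KO (SD, n = 3 each). The log2 difference of 0.29 (SE 0.28) became 0.56 without KO library 1, 0.15 without KO library 2 and 0.16 without KO library 3.

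Car3 had the same rank order over the 6 libraries as the summed markers of mature fibres. These 11 genes, such as the skeletal actin Acta1 and the muscle creatine kinase Ckm, summed to 18.6, 22.8 and 33.2 TPM in WT and to 16.7, 54.3 and 50.6 TPM in KO. Per 100 TPM of fibre markers, Car3 lay at 1.56 to 1.61 TPM in WT and at 1.02 to 2.04 TPM in KO. In 1 of the 11, Actn3, every KO library was above every WT library, near the share of 9.13% among all symbols above 0 in at least 1 library. In the other 10 the groups overlapped. Of the adipocyte markers, Adipoq held at most 0.03 TPM and Plin1 at most 0.04 TPM. The part of fibre RNA in the Car3 values was not tested.

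**Figure D2:**
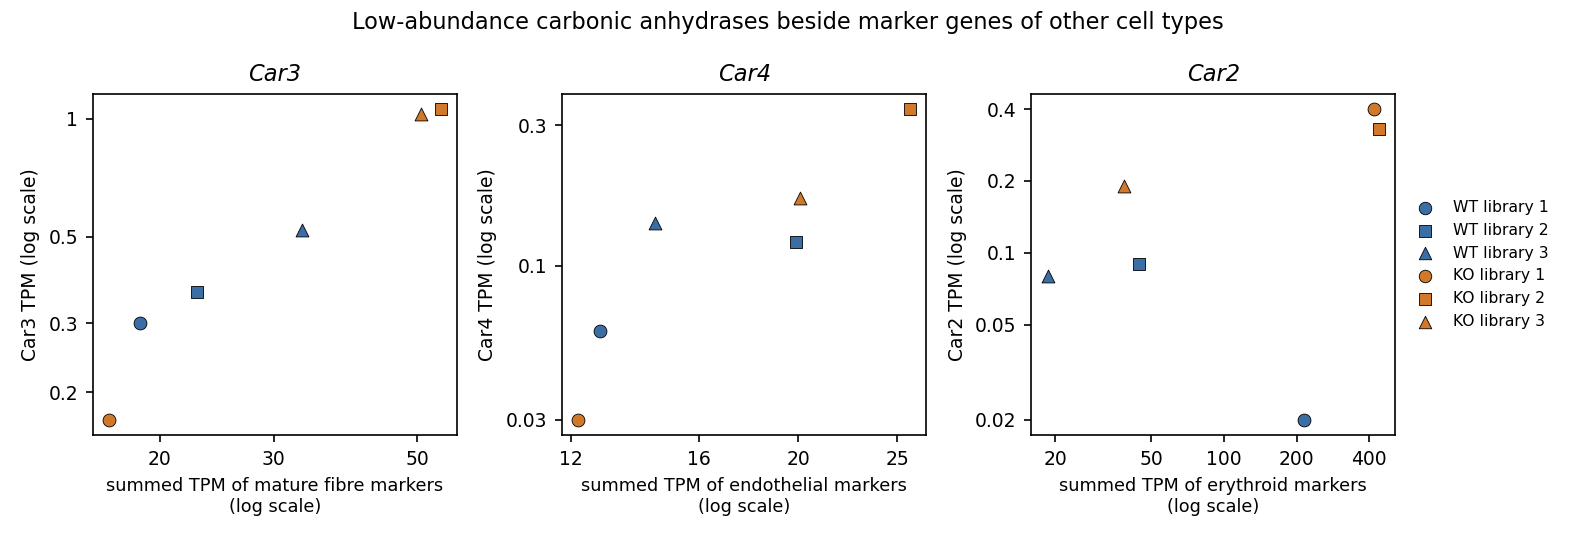
Car3, Car4 and Car2 TPM (vertical, log axes) against the summed TPM of 11 fibre, 10 endothelial and 8 erythroid markers (horizontal, log axes), with 1 point per library, WT in blue and KO in orange. Car3 and the fibre markers put all 6 libraries in the same order; Car4 and the endothelial markers are both lowest in KO library 1 and highest in KO library 2; in the Car2 panel WT library 1 (0.02 TPM) has the lowest Car2 at an erythroid sum of 215 TPM. In that panel KO libraries 1 and 2 have the highest Car2 values and the highest erythroid sums.

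Car4 and the summed endothelial markers had the same rank in 4 of the 6 libraries, fewer than Car3 and the fibre markers. Their sum was 12.8, 19.9 and 14.5 TPM in WT and 12.2, 25.7 and 20.1 TPM in KO, and KO library 1 held the lowest and KO library 2 the highest value of both Car4 and the sum. Per 100 TPM of these markers, Car4 lay at 0.467 to 0.968 TPM in WT and at 0.247 to 1.32 TPM in KO. The groups overlapped in all 10 markers, and none was at 0 in every library. Among all symbols above 0 in at least 1 library, 9.13% had every KO library above WT and 2.31% below. The part of endothelial RNA in the Car4 values was not tested.

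Car13, the remaining cytosolic enzyme, was level. It held 0.23, 0.4 and 0.18 TPM in WT and 0.21, 0.2 and 0.36 TPM in KO, with a log2 difference of -0.01 (SE 0.09). Car13, Car1, Car3 and Car2 lie within 1 cluster on chromosome 3, where 13.8 kb separate Car3 (14863512 to 14872523) from Car2 (14886273 to 14900770), and Car13 (14641727 to 14663002) lies 201 kb before Car3, all 3 on the plus strand. These neighbours had different patterns: Car2 was higher in every KO library, Car3 was highest in 2 of them, Car13 overlapped and Car1 was listed at 0.

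Most of the carbonic anhydrase RNA in these cells came from genes outside the 8. Car5b, a mitochondrial enzyme, was the most abundant of the family in KO and in WT, at 2.86 ± 0.332 TPM in WT and 3.37 ± 0.24 TPM in KO (SD, n = 3 each; limma adjusted p = 0.623, Benjamini-Hochberg over all genes tested). Car10, a relative without catalytic activity, held 1.52 ± 0.348 and 1.63 ± 0.321 TPM (limma adjusted p = 0.873). Of the 16 genes of the family, 11 were under 1 TPM in every library, and Car1 and Car6 were listed at 0 throughout. In the 10 outside the 8 the groups overlapped in every case, though Car1 and Car6, at 0, could not do otherwise. Most symbols overlap: among those above 0 in at least 1 library, KO lay wholly below WT in 2.31% and wholly above in 9.13%.

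Summed over all 16 genes, the family held 9.28 ± 1.68 TPM in WT and 8.79 ± 0.929 TPM in KO (SD, n = 3 each), a difference smaller than the spread between libraries. Car12 was 19.3% to 24.4% of that sum in WT and 1.15% to 3.99% in KO. The other 15 genes together held 7.19 ± 1.12 TPM in WT and 8.58 ± 1.03 TPM in KO, and their ranges overlapped.

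**Figure D3:**
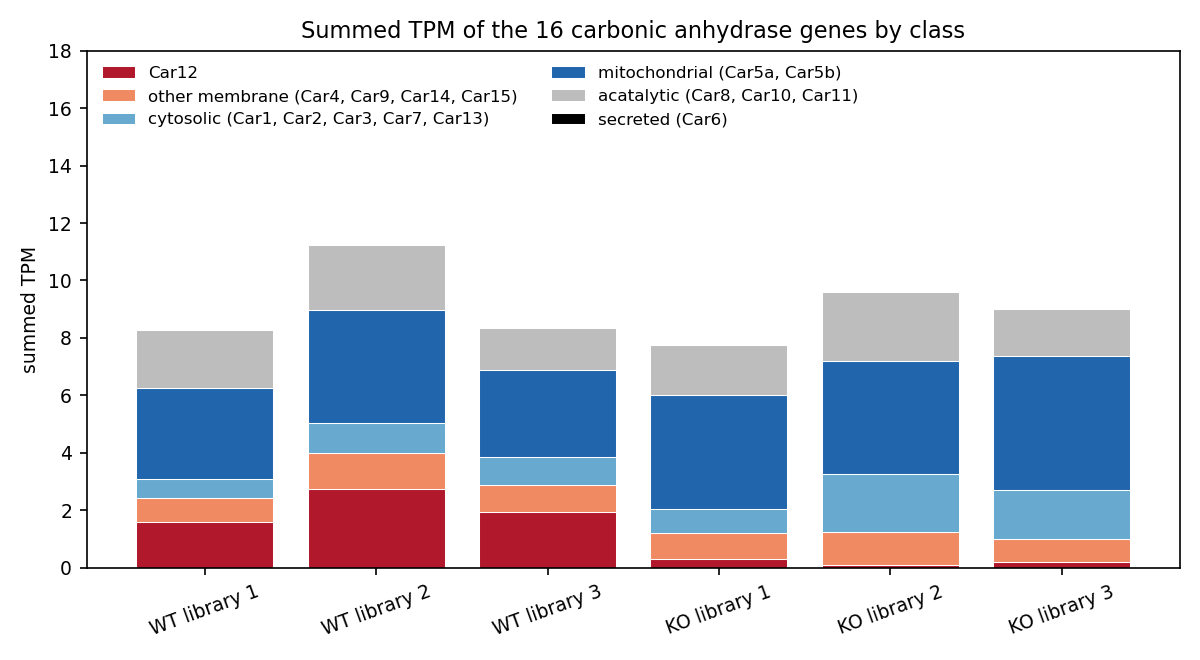
Stacked bars of the summed TPM of the 16 carbonic anhydrase genes, 1 bar per library, split into Car12, the other membrane enzymes, the cytosolic, the mitochondrial, the acatalytic and the secreted class. The red Car12 part is 1.6 to 2.74 TPM in the WT bars and 0.11 to 0.31 TPM in the KO bars, while the whole bars overlap (8.28 to 11.22 TPM in WT and 7.77 to 9.59 TPM in KO).

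Slc9a9, the exchanger of late recycling endosomes, was the most abundant of the 8 genes in KO. It held 0.85, 1.09 and 0.87 TPM in WT and 2.33, 2.52 and 2.24 TPM in KO. The groups were far apart and each was narrow: the means were 0.937 ± 0.133 and 2.36 ± 0.143 TPM (SD, n = 3 each), a ratio of 2.52. The log2 difference was 0.8 (SE 0.07), and with each library left out in turn the ratio lay between 2.41 and 2.75.

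Slc9a9 spans 561 kb on chromosome 9 (94669909 to 95230445, plus strand, GRCm38), 27.9 Mb from Car12. An antisense gene, Gm16262, the pseudogene Gm47168 and the hairpin gene Mir7656 are annotated within it. Mir7656 was listed at 0 in every library, and the other pair are not among the listed symbols. Overlap of their exons with those of Slc9a9 was not examined. Whether reads of the antisense gene enter the Slc9a9 values is therefore unknown.

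Of the 8 markers of Schwann cells and other glia, 3, among them Mbp and Ncmap, were above WT in every KO library. The share among all symbols above 0 in at least 1 library was 9.13%. Gfra3 was listed at 0 throughout. The sum of the 8 ran from 4.53 to 7.08 TPM in WT and was 6.93, 13.8 and 19.8 TPM in KO. In KO library 1, where that sum lay within the WT range, Slc9a9 held 2.33 TPM. The part of glial RNA in the Slc9a9 values was not tested. Over the 8 marker lists examined, 0 had a sum that was lower, and 0 a sum that was higher, in every KO library than in every WT library.

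The gene next to Slc9a9, 1190002N15Rik, lies 132 kb before it. It held 5.27 ± 0.582 TPM in WT and 7.81 ± 0.631 TPM in KO (SD, n = 3 each). It was above WT in every KO library, as were 13.5% of all genes tested. Its log2 difference of 0.49 did not pass (limma adjusted p = 0.221, Benjamini-Hochberg over all genes tested; unadjusted p = 0.00502). U2surp, a splicing factor gene on the other side, held 5.11 ± 0.503 and 5.59 ± 0.242 TPM (limma adjusted p = 0.745). The 6 nearest protein-coding genes were all listed, 4 were tested and 0 called by limma, against 0.0557% called among all genes tested. Of the 4, 1 had an unadjusted limma p under 0.05, against 10.6% of all genes tested.

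Slc9a8, the exchanger of the Golgi and endosomes, differed little. It held 0.84, 0.92 and 0.7 TPM in WT and 0.63, 0.97 and 1.01 TPM in KO, with means of 0.82 ± 0.111 and 0.87 ± 0.209 TPM (SD, n = 3 each). The KO libraries enclosed the WT range. Its log2 difference of 0.03 (SE 0.11) turned to -0.04 under median-of-ratios scaling and to between -0.02 and -0.01 without WT library 3, KO library 2 or KO library 3.

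Among the other exchangers, Slc9a7 of the trans-Golgi network held 1.27 ± 0.182 TPM in WT and 1.63 ± 0.28 TPM in KO (SD, n = 3 each; limma adjusted p = 0.61, Benjamini-Hochberg over all genes tested). Of the 12 genes of the family 7 were under 1 TPM in every library, and in the 10 outside the 8 the groups overlapped in every case. Slc9c1, at 0 in every library, could not do otherwise. Among symbols above 0 in at least 1 library, KO lay wholly below WT in 2.31% and wholly above in 9.13%.

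**Figure D4:**
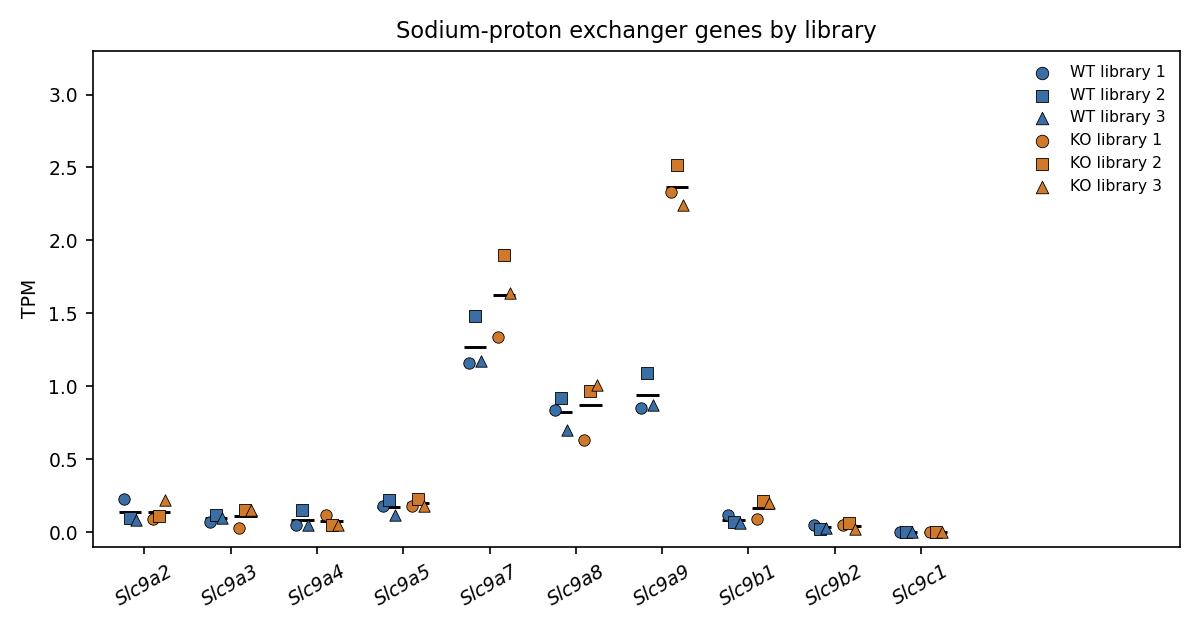
TPM of 10 of the 12 sodium-proton exchanger genes on a linear axis, with 1 point per library, WT in blue and KO in orange, and bars at the means of 3 libraries. Slc9a9 is the gene whose KO points (2.24 to 2.52 TPM) lie clear of the WT points (0.85 to 1.09 TPM); Slc9a7 and Slc9a8 overlap, and the others stay under 0.3 TPM.

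In order of level in WT, Car12 stood above Slc9a9 with no overlap of their ranges, and Slc9a9 and Slc9a8 overlapped. Slc9a8 stood clear of Car3, Car3 and Car13 overlapped, Car13 stood clear of Car4, and Car4, Car2 and Car14 could not be ordered beyond their spread. In KO, Slc9a9 stood clear of Slc9a8, and every further pair of neighbours, down through Car3, Car2, Car13, Car12 and Car4 to Car14, overlapped. Over the symbols above 0, the mean of Slc9a9 lay at the 66.4th percentile, that of Car12 at the 59.4th and that of Car14 at the 20.5th.

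The genes whose values over the 6 libraries were most like those of Car12, by Pearson's r of log2(TPM + 1) over the genes tested, included Rplp1 (r = 0.998), Rpl31 (0.995) and Rps9 (0.99), which encode proteins of the ribosome. Rplp1 held 651 ± 66.3 TPM in WT and 404 ± 27.2 TPM in KO (SD, n = 3 each), a far smaller relative difference than that of Car12. Both had the order WT library 2, 3, 1, then KO library 1, 3, 2, from high to low. In all, 76 tested genes reached an r of 0.95 with Car12, of which 56 were ribosomal protein genes.

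Most like Slc9a9 were Lims1 (r = 0.998), Ncoa1 (0.992), Prkci (0.991), Ankib1 (0.99) and Lrrc40 (0.989). Ncoa1, a coactivator of nuclear receptors, held 10.8 ± 0.274 TPM in WT and 15 ± 0.309 TPM in KO, and Lims1, an adhesion adaptor, 4.38 ± 0.117 and 5.65 ± 0.0814 TPM (SD, n = 3 each). An r of 0.95 was reached by 89 genes. Since 6 libraries in 2 groups give a high r to any gene with well separated groups, these values describe likeness only.

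The rest of the acid-base machinery, with hypoxia-responsive genes added, was examined through 8 lists. These held 111 genes outside the 8 members, 52 of them tested, of which 17 were in the hypoxia-responsive list. None of the 52 was called in either direction by limma, against 0.0334% called higher and 0.0223% called lower among all 8971 genes tested. An unadjusted p under 0.05 was found for 8 of the 52 (15.4%), 5 higher and 3 lower in KO, against 10.6% of all genes tested. In 6 every KO library lay above WT and in 2 below, against 13.5% and 3.07% of all genes. The median log2 difference of the 52 was 0.14 and that of all genes tested 0.12. This direction depended on the scaling: the 52 held 44 higher and 8 lower values as deposited, 31 and 21 under median-of-ratios scaling with a median of 0.04, and 29 and 23 after quantile normalization with a median of 0.02. An unadjusted p under 0.05 was then found for 1 higher and 3 lower, and for 3 higher and 3 lower. All 8971 genes tested held 6959 higher and 2012 lower values as deposited. They held 4695 and 4276 under median-of-ratios scaling, and 4434 and 4537 after quantile normalization.

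The vacuolar proton pump, which acidifies endosomes and lysosomes, had 17 of its 25 genes tested, with a median log2 difference of 0.18. The 17 held 15 higher and 2 lower values, against 6959 and 2012 among all 8971 genes tested. Under median-of-ratios scaling the 17 had 11 higher and 6 lower values and a median of 0.05, and after quantile normalization 10, 7 and 0.03. As deposited, an unadjusted limma p under 0.05 was found for 3 higher and 1 lower of the 17, against 10.6% of all genes tested. The 3 higher genes follow. Atp6v1d, a stalk subunit, held 3.03, 2.86 and 2.86 TPM in WT and 4.14, 5.38 and 4.46 TPM in KO, with no overlap (limma adjusted p = 0.197, Benjamini-Hochberg over all genes tested). Atp6v1h, a regulatory subunit, held 3.73 ± 0.291 and 4.9 ± 0.312 TPM (limma adjusted p = 0.38), and Atp6v0a2, a membrane subunit, 1.09 ± 0.12 and 1.78 ± 0.531 TPM (limma adjusted p = 0.442; SD, n = 3 each).

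Bicarbonate transporters, which carry the product of the carbonic anhydrases, had 3 of 20 genes tested, with a median of 0.14, which quantile normalization took to 0.02 and median-of-ratios scaling to 0.04. The sodium-bicarbonate cotransporter Slc4a7 was the highest of the 3, at 8.68 ± 2.34 TPM in WT and 9.74 ± 0.853 TPM in KO (limma adjusted p = 0.744). Slc4a2, an anion exchanger, held 2.21 ± 0.217 and 2.54 ± 0.385 TPM, and Slc4a4, another cotransporter, 1.06 ± 0.0723 and 1.26 ± 0.123 TPM (SD, n = 3 each), with limma adjusted p = 0.711 and 0.695.

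Proteins that bind the exchangers had 7 of 11 genes tested and a median of 0.06. The sign of that median turned, to -0.05 with either rescaling (quantile or median-of-ratios) and to -0.04 without KO library 2. Rack1, a ribosome-bound scaffold, held 206 ± 17.9 TPM in WT and 136 ± 15.4 TPM in KO, with no overlap (limma adjusted p = 0.194; SD, n = 3 each). Scamp2, a protein of secretory and recycling membranes, was above WT in every KO library, at 1.69 ± 0.11 and 1.99 ± 0.21 TPM (limma adjusted p = 0.659). The scaffold Slc9a3r2 varied within KO, where it held 0.53, 3.79 and 1.87 TPM, and less within WT, where it held 0.82, 1.44 and 1.44 TPM (limma adjusted p = 0.749).

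Monocarboxylate transporters, which move lactate together with a proton, had 3 of 6 genes tested and a median of 0.1. Its sign turned too, to -0.05 under median-of-ratios scaling, -0.08 under quantile normalization, -0.07 without WT library 3 and -0.09 without KO library 1. Emb, an accessory protein of these transporters, held 2.16, 2.64 and 2.46 TPM in WT and 2.04, 1.64 and 1.16 TPM in KO, each KO value below each WT value (limma adjusted p = 0.391). Bsg, the other accessory protein, held 21.5 ± 1.31 and 23.1 ± 2.15 TPM, and Slc16a1, a lactate transporter, 11.5 ± 3.74 and 12.9 ± 4.36 TPM (SD, n = 3 each), with limma adjusted p = 0.787 and 0.851.

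Hypoxia-responsive genes, a group to which Car9 and Car12 are known to belong in tumours, had 17 of 20 tested and a median of 0.13. The 17 held 13 higher and 4 lower values, against 6959 and 2012 among all 8971 genes tested. Both scalings left 9 higher and 8 lower values among the 17, with a median of 0.02 after quantile normalization and 0.03 after median-of-ratios scaling. Without KO library 2 the median was 0.05, and without WT library 3 it was 0.07. Ndrg1 held 68.1 ± 15 TPM in WT and 99.6 ± 23.8 TPM in KO (limma adjusted p = 0.445), the mitophagy receptor gene Bnip3l 3.98 ± 0.216 and 5.06 ± 0.461 TPM (0.459), and Adm, the adrenomedullin gene, 2.19 ± 0.799 and 3.08 ± 0.15 TPM (0.494; SD, n = 3 each). None of the 9 acid sensors, such as the channel Asic1, passed the filter. Their summed TPM was 1.3 to 2 in WT and 1.63 to 1.84 in KO.

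**Figure D5:**
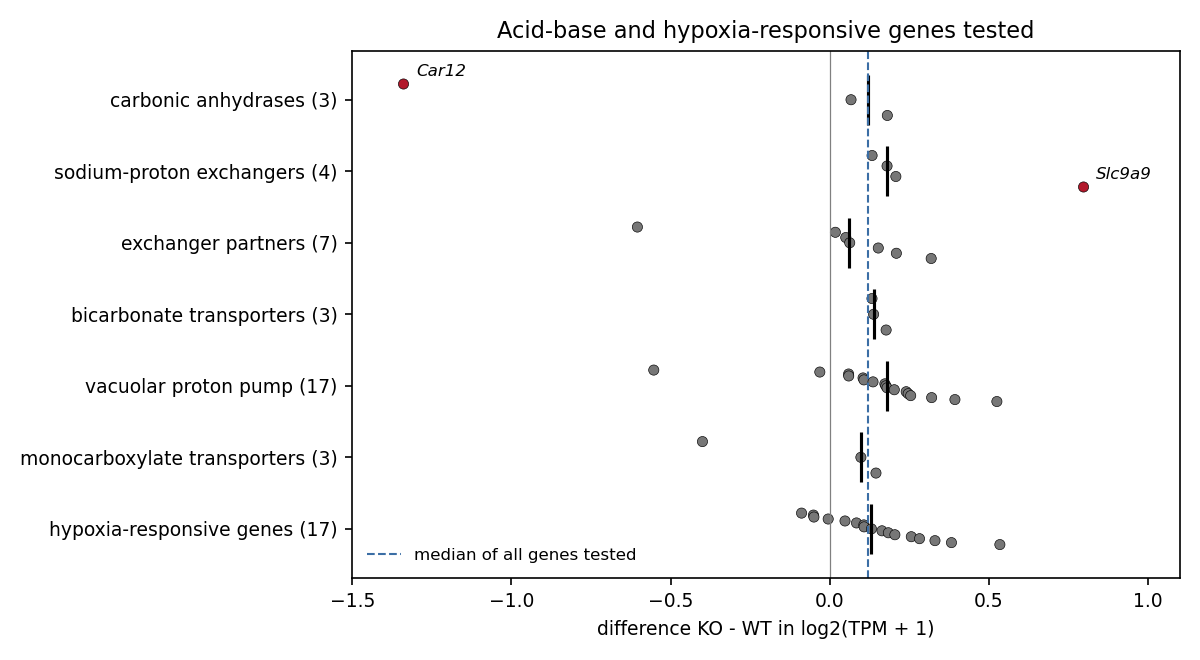
Difference KO - WT in log2(TPM + 1) of each tested gene in 7 lists, with the number tested beside each list; red points are members of the 8, black bars the medians without them, and the dashed line the median of all genes tested, 0.12. Car12 at -1.34 and Slc9a9 at 0.8 lie outside the range of the other points, which run from Rack1 at -0.6 to Ndrg1 at 0.53.

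The median of all genes tested moved from 0.12 to 0.009 under median-of-ratios scaling. Under it the ratio of means was 0.0939 for Car12, 2.28 for Slc9a9, 4.46 for Car2 and 2.48 for Car14. On the log2 scale the differences of Car12 and Slc9a9 were then -1.39 and 0.71.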

How the data were processed

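RNA-seq of 3 WT and 3 KO libraries was analysed from the TPM per gene symbol that the authors deposited. Per the submitters' processing notes, kallisto, Trimmomatic 0.33, CASAVA and FastQC were used with GRCm38 (mm10), in no stated role or order; strandedness, the annotation and how transcripts were summed per symbol are not given in the sources used here. Groups came from the genotype labels, and library numbers follow accession order.

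Genes with 1 TPM or more in at least 3 of 6 libraries (8971) entered a limma fit (version 3.58.1, R 4.3.3) of log2(TPM + 1) (eBayes with a trend, two-sided, Benjamini-Hochberg over all genes tested, threshold 0.05). The procedure was tested on simulated data with independent noise per gene and added differences larger than those of the list genes outside the members. The simulation therefore does not show how the fit handles smaller differences or library-wide shifts. SEs of the 8 members come from the spread between libraries alone. The members and lists were chosen with earlier results of these data known. Named were all members, Esr1, up to 3 tested genes per list with the smallest p outside the members, and the 5 genes most like Car12 and Slc9a9. A few genes that this rule names are not reported here. Car9, Car15, neighbouring and overlapping genes and single markers were named after their values were seen. Coordinates and neighbours are from GENCODE vM21 on GRCm38, matched by symbol; upstream windows are from RefSeq GRCm38.p6, matched for 5 of 8 members. Of the symbols, 24461 matched RefSeq, whose biotypes marked the small RNA genes. Figures were drawn with matplotlib 3.10.9. Higher and lower values per list under each alternative were counted after the data had been seen.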

Additional observations from a re-analysis of the deposited data

How the results depend on the processing

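Pseudocounts of 0.1 and 5, no filter and a filter on mean TPM of 1, median-of-ratios scaling, quantile normalization, eBayes without a trend, rescaling after small RNA genes were removed, library weights and leaving out each library were tried. The counts of all genes called, 3 higher and 2 lower, moved with most of them. Called higher were 0 at a pseudocount of 0.1, with no filter and with the mean filter, 1 under median-of-ratios scaling or quantile normalization, 14 without small RNA genes and 53 with library weights. Called lower were 0 at a pseudocount of 5, with no filter, with the mean filter and under quantile normalization, 18 without small RNA genes and 27 with library weights. Leaving out 1 library gave 0 to 4 higher and 0 to 2 lower, with 0 in both directions without KO library 3. The cause was not tested. Among the 52 list genes outside the members, 0 were called by limma in all 15 alternatives. Car12 was lower in all 12 alternatives that give it a value (log2 difference -2.84 to -0.44, both extremes set by the pseudocount) and Slc9a9 higher in all 12 (0.31 to 1.25). Car2, Car3 and Car14 were higher in all 10 of theirs. Car4 was lower in 1 of 10, and Car13 and Slc9a8 took either sign. Quantile normalization and library weights give no value for the 6 members that did not pass the filter. No paired analysis was possible because the libraries carry no shared replicate number in the labels. Depth is unknown, and members under 0.5 TPM rest on steps of 0.01 TPM.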
